A study of Mus musculus with 6 samples.

Results

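Tex10, Las1l, Nol9, Pelp1, Wdr18, Senp3 and Mdn1 encode the proteins of the rixosome; all of them but Nol9 and Mdn1 have also been described together as the 5FMC complex. These 7 genes were taken by name from GENCODE release M21 (GRCm38), out of 21853 protein-coding genes on the assembled chromosomes, and each name matched 1 gene. The study is a chromatin immunoprecipitation sequencing (ChIP-seq) experiment on mouse primordial germ cell-like cells (PGCLCs) of strain 129Sv/J, untreated, at day 2. It has 2 samples with an antibody to the HA tag fused to the C-terminus of Tex10 (HA-Tex10), 2 with an antibody to H3K4me3, the trimethylated form of lysine 4 on histone H3 that marks promoters, and 2 inputs. The deposited data hold 3 interval lists, 1 for H3K4me3 and 2 for HA-Tex10, of which the shorter HA-Tex10 list is the part of the other that overlaps H3K4me3. Each gives a start and an end per interval and no score, and none is given per sample, so no value here has a replicate error and no test between samples was possible. The sequencing depth is unknown, and no sample analysed here is labelled as lacking the tag.

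The complex works in the nucleolus, where it helps to mature the large (60S) ribosomal subunit. Las1l is the endonuclease that cuts the second internal transcribed spacer of the pre-ribosomal RNA, and Nol9 is the polynucleotide kinase that acts beside it. Tex10, Pelp1 and Wdr18 form the scaffold, Mdn1 is the giant AAA ATPase that remodels pre-60S particles, and Senp3 removes SUMO from nucleolar proteins. Tex10 has also been described at enhancers and promoters of pluripotent cells, together with Sox2 and the acetyltransferase p300. The question put to the data here is whether HA-Tex10 lay at the genes of its own complex, and how H3K4me3 was placed there.

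H3K4me3 was found at all 7 genes, within 1 kb of an annotated transcription start site (TSS), and 2 of them, Tex10 and Nol9, also had an HA-Tex10 interval there. If the centre of the interval must lie within 1 kb, H3K4me3 was found at 6, since the centre of the Tex10 interval lies farther inside the gene. Every annotated transcript of a gene was used to place its TSS. Across all coding genes, 61.6% had H3K4me3 and 8.97% had HA-Tex10 by the same rule. Among the 13457 coding genes with H3K4me3, called marked genes below, the HA-Tex10 share was 14.3%. The 7 genes were chosen with earlier results of these data known, so the count of 2 is given as a description beside these shares.

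The sequences that follow are those on which the description of single genes rests. They come from the GRCm38.p6 reference, 5′ to 3′ on the strand of the gene, and capitals mark words of the motif set described further below. At Nol9 the bases of the HA-Tex10 interval that lie upstream of every untranslated region in GENCODE or RefSeq are shown (chr4:152039040-152039260, plus strand), followed by the stretch inside the same interval that holds its paired GC boxes (chr4:152039275-152039304).
Nol9 interval: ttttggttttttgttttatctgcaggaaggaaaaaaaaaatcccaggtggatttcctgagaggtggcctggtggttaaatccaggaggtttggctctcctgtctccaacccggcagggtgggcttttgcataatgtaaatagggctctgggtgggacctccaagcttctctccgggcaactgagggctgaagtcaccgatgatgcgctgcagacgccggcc
Nol9 GC boxes: gCCGCCCcgctgctcttccgctggGGGCGG
At Tex10 the promoter just upstream of the gene is shown (chr4:48473465-48473709, minus strand), since all 123 bases of the HA-Tex10 interval are 5′ untranslated in GENCODE or in a predicted RefSeq transcript and are not printed. At Pelp1 the whole distal interval is shown (chr11:70414036-70414116, minus strand).
Tex10 promoter: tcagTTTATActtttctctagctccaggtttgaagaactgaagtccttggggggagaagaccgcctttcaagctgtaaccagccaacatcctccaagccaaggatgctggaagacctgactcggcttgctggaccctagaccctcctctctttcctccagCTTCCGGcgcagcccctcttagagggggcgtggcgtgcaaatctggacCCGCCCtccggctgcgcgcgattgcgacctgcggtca
Pelp1 distal interval: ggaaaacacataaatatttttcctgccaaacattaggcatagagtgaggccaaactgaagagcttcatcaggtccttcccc

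Tex10, the gene of the tagged protein itself, carried its HA-Tex10 interval inside H3K4me3. The gene (ENSMUSG00000028345.15) spans 42602 bp of chromosome 4, minus strand, between 48430858 and 48473459. Its HA-Tex10 interval was 123 bp wide and lay 108 to 230 bp downstream of the 5′-most TSS. It contained 1 of the 6 annotated TSS of Tex10, that of a retained-intron transcript, and no coding one. Of its bases, 86 fell in the 5′ untranslated first exon of GENCODE and 37 in the intron that follows. The H3K4me3 interval was 2297 bp wide, began 15 bp downstream of the 5′-most TSS and ended 2311 bp downstream. The HA-Tex10 interval therefore sat at the promoter-side edge of the marked stretch, 93 bp from that edge and 2081 bp from the other.

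Nol9 showed another arrangement, in which HA-Tex10 and H3K4me3 stood side by side without overlap. Nol9 (ENSMUSG00000028948.16) lies on the plus strand of chromosome 4, from 152039321 to 152061494. Its HA-Tex10 interval, from 152039040 to 152039341, was 302 bp wide and reached from 281 bp upstream to 20 bp downstream of the 5′-most TSS. It contained 3 of the 4 annotated TSS, both coding ones among them. The H3K4me3 interval, from 152039368 to 152040845, was 1478 bp wide and began 47 bp downstream of that TSS, inside the gene. A gap of 26 bp separated the intervals, and no annotated TSS of Nol9 lay inside H3K4me3.

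The side-by-side placement at Nol9 was the less common one. Among the 1922 coding genes with both kinds of interval within 1 kb of a TSS, 125 (6.5%) had no HA-Tex10 interval there that overlapped H3K4me3. The median gap to H3K4me3 over these 125 genes was 167 bp, and 22 of them (17.6%) had a gap no larger than that of Nol9. Whether the 26 bp gap would remain at another calling threshold was not tested.

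**Figure D1:**
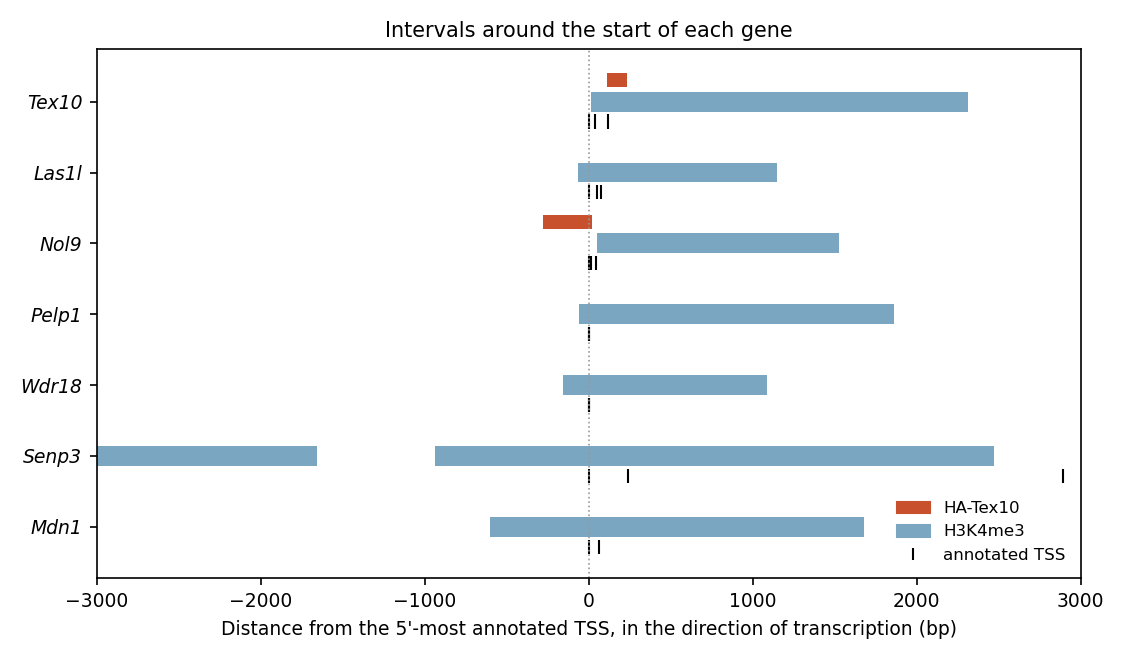
HA-Tex10 (red) and H3K4me3 (blue) intervals around the 5′-most annotated TSS of the 7 genes, in bp along the direction of transcription, with annotated TSS as black ticks; bars that run past the frame are cut there. HA-Tex10 lies 108 to 230 bp downstream at Tex10, inside H3K4me3, and from 281 bp upstream to 20 bp downstream at Nol9, beside it.

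The widths of the intervals at both genes lay within the spread of the list. The Tex10 interval was wider than 17.3% and the Nol9 interval wider than 67.1% of those at the 1922 coding genes with both, whose median was 238 bp. The list also holds very narrow intervals: 268 of its 4238 (6.32%) were under 50 bp and 3 were 1 bp wide, and whether the lists are intersections of replicates is not given in the sources used here. Interval edges, widths and gaps are therefore those of the deposited lists, at a precision that is not known. Neither interval held a 32-base word that occurs elsewhere on the assembled chromosomes (0 of 92 words at Tex10 and 0 of 271 at Nol9), so at this word length their sequence was unique in the reference. The Tex10 interval had a GC content of 71.5% and 18 CpG dinucleotides, 1.14 times the number its base composition predicts. At Nol9 the GC content was 59.9%, with 19 CpG and a ratio of 0.719. Both lie on chromosome 4, where 13.5% of 896 marked genes had HA-Tex10.

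**Figure D2:**
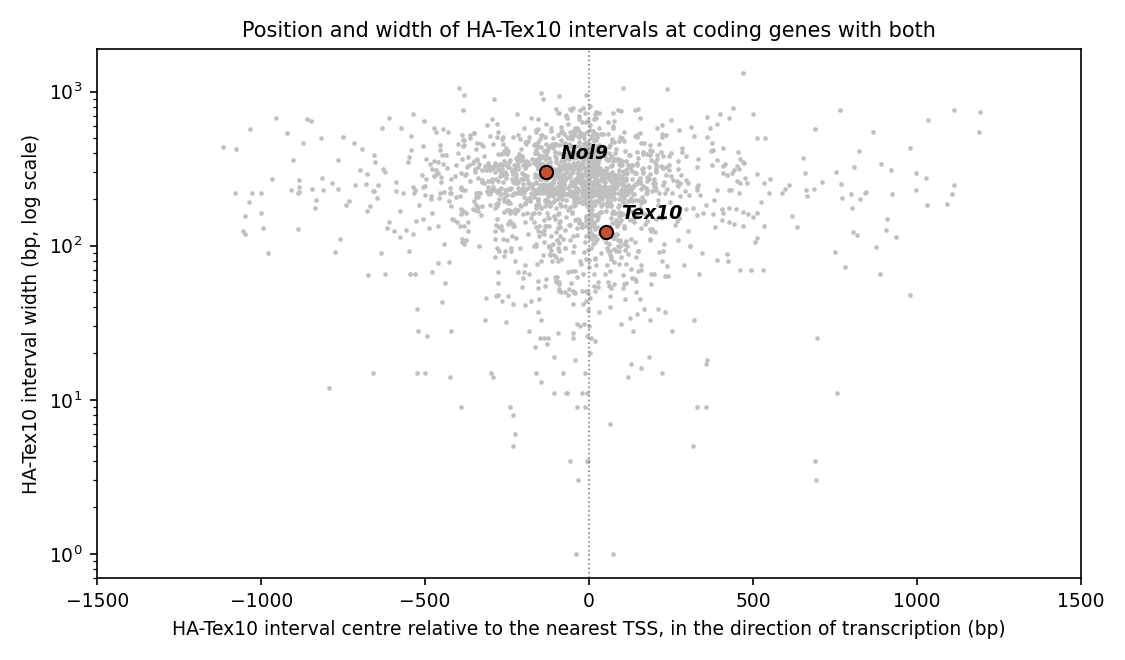
Each grey point is 1 of the 1922 coding genes with HA-Tex10 and H3K4me3 within 1 kb of a TSS, by the position of the HA-Tex10 interval centre relative to the nearest TSS (bp) and the interval width (bp, log scale). Nol9 (302 bp) and Tex10 (123 bp), in red, lie within the spread of the other genes.

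The scaffold gene Pelp1, whose product binds nuclear receptors and holds the complex together, had HA-Tex10 only at a distance. Pelp1 (ENSMUSG00000018921.11) is on chromosome 11, minus strand, between 70392883 and 70410031. The interval, from 70414036 to 70414116, was 81 bp wide and lay 4005 bp upstream of the nearest TSS, overlapping 0 annotated genes of any type in GENCODE. It was narrower than most, with 10.8% of HA-Tex10 intervals narrower still. It met no H3K4me3, the nearest being 3946 bp away at the Pelp1 promoter. Its sequence was of another kind than the promoter intervals, with a GC content of 43.2% and 0 CpG. It was also unique in the reference (0 of 50 words repeated). The H3K4me3 interval of Pelp1 was 1919 bp wide and spanned the TSS, from 58 bp upstream to 1860 bp downstream.

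At Senp3, the SUMO protease gene, HA-Tex10 was found only at the promoter of the neighbouring gene. Senp3 (ENSMUSG00000005204.12) spans 8970 bp of chromosome 11, minus strand, between 69673115 and 69682084. An HA-Tex10 interval of 221 bp, from 69671567 to 69671787, lay 1327 bp beyond the end of the gene. It contained a TSS of Eif4a1, which encodes an RNA helicase of translation initiation, and fell wholly within an H3K4me3 interval of 2797 bp there. At the Senp3 promoter itself H3K4me3 covered 3405 bp, from 936 bp upstream to 2468 bp downstream of the 5′-most TSS, the widest of the 7 genes. That interval also contained a TSS of the antisense gene Tnfsf13os, so the mark there cannot be given to Senp3 alone. A further interval of 2816 bp began 1659 bp upstream, at Tnfsf13.

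Las1l, Wdr18 and Mdn1 had no HA-Tex10 interval in the gene or within 10 kb of it. For the endonuclease gene Las1l (ENSMUSG00000057421.12; X chromosome, minus strand, 95935335 to 95956962) the nearest lay 395 kb from a TSS. For Wdr18 (ENSMUSG00000035754.8; chromosome 10, plus strand, 79960152 to 79970203), a WD-repeat scaffold gene, the nearest was at 35.6 kb. For Mdn1 (ENSMUSG00000058006.12; chromosome 4, plus strand, 32657119 to 32775217) it was at 1130 kb, and 90.1% of coding genes had a nearer one. The median distance was 157 kb over all coding genes and 102 kb over marked genes. Wdr18 thus lay closer to HA-Tex10 than most genes, while Las1l and Mdn1 lay farther. At an unknown depth, the lack of an interval says only that none was detected, not that Tex10 is absent.

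The number of HA-Tex10 intervals in the wider neighbourhood followed another order. Within 500 kb of the 5′-most TSS there were 14 HA-Tex10 intervals at Wdr18, 10 each at Pelp1 and Senp3, 5 at Nol9, 4 at Tex10, 1 at Las1l and 0 at Mdn1. The median coding gene had 2. Wdr18, Pelp1 and Senp3 had the highest counts and none at their own TSS. The windows of Pelp1 and Senp3, both on chromosome 11, overlap, so their counts can include the same intervals. Las1l is the 1 member on the X chromosome, where 1 of 342 marked genes (0.292%) had HA-Tex10 within 1 kb of a TSS. On the chromosomes of the other 6 genes the share was 13.5% (chromosome 4), 14.3% (chromosome 10) and 14.7% (chromosome 11). None of the 7 lies on chromosome 8, where it was 41.8%.

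**Figure D3:**
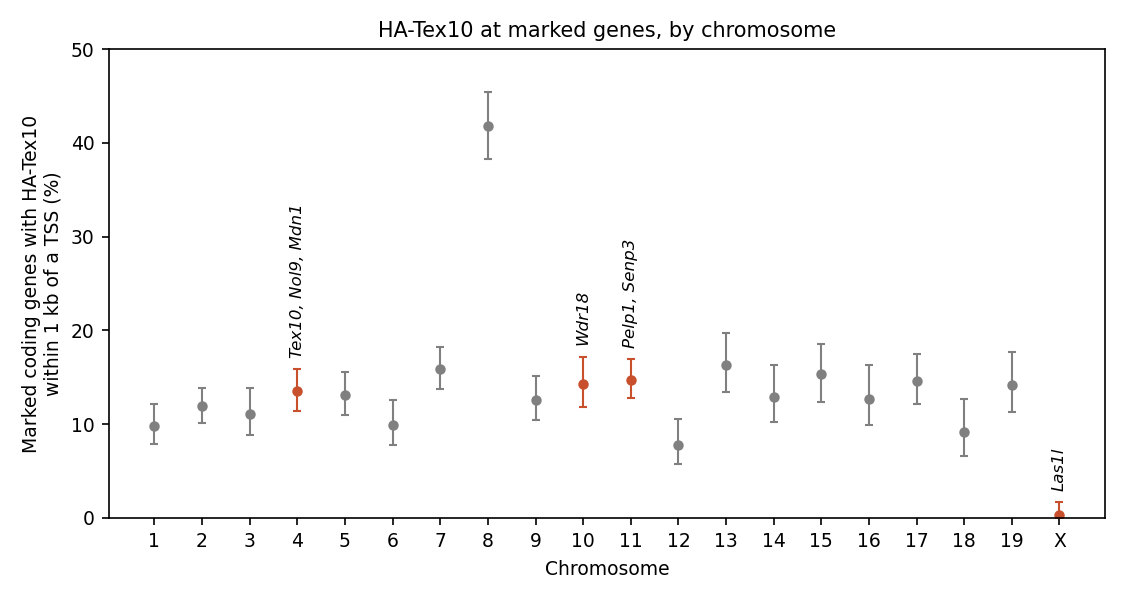
Share of marked coding genes that had HA-Tex10 at a TSS (within 1 kb) on each chromosome, with Wilson 95% intervals that cover the counting of genes only; chromosomes of the 7 genes are red and labelled, and the Y chromosome, with 1 marked gene, is left out. Chromosome 8 stands at 41.8% and X at 0.292%, against 13.5% for chromosome 4, which holds Tex10, Nol9 and Mdn1.

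The H3K4me3 widths of the 7 genes lay on both sides of the median of marked genes. In rising order the widths were 1210 bp at Las1l, 1245 bp at Wdr18, 1478 bp at Nol9, 1919 bp at Pelp1, 2279 bp at Mdn1, 2297 bp at Tex10 and 3405 bp at Senp3. The median of the 7 was 1919 bp, against 1342 bp (interquartile range 861 to 1967 bp) over all marked genes. Las1l and Wdr18 were narrower than that median and the other 5 wider, Senp3 exceeding 96.3% of marked genes. By definition a median has about as many marked genes above it as below, so this split is a description only. With neighbouring intervals merged within 1 kb the median of marked genes was 1494 bp, and Nol9, still at 1478 bp, fell below it, which left 4 wider and 3 narrower. The merged interval at Senp3 was 6943 bp wide, because it joined the 3405 bp interval there with the separate one of 2816 bp at Tnfsf13. Mdn1 and Tex10 differed by less than 20 bp and exceeded 83.2% and 83.7%. The order carries no error, since 1 H3K4me3 list was deposited, so neighbours in it cannot be called different. The genes with HA-Tex10 at the TSS, Nol9 and Tex10, stood among those without it in this order.

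**Figure D4:**
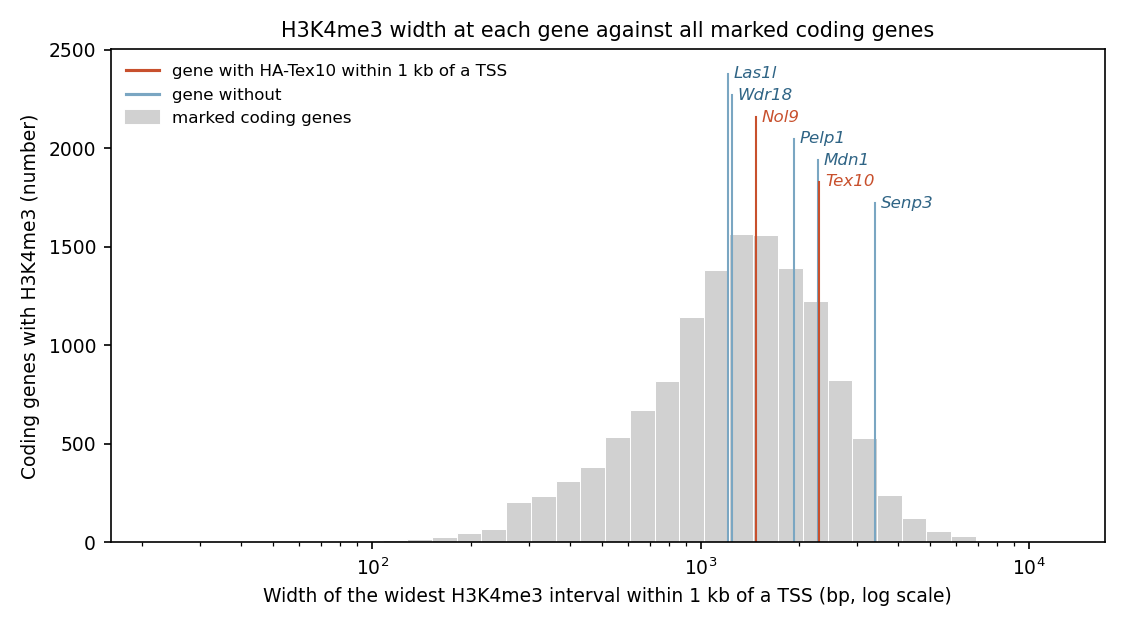
Grey bars count the marked coding genes by the width of their widest H3K4me3 interval within 1 kb of a TSS (bp, log scale), and each line is 1 of the 7 genes, red with and blue without HA-Tex10 there. The 7 genes run from 1210 bp (Las1l) to 3405 bp (Senp3), across the middle and upper part of the distribution.

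Each gene had a single H3K4me3 interval at its promoter, and annotated starts farther inside the genes lay outside it. The 7 genes have 41 distinct annotated TSS, of which 13 (31.7%) lay inside H3K4me3 and 20 (48.8%) within 1 kb of it. Over the 72736 TSS of all marked genes these shares were 52.9% and 65.9%. At Mdn1, whose product is among the largest proteins of the cell, the gene spans 118099 bp and has 9 annotated TSS. The 2 at its 5′ end were inside H3K4me3, and the other 7, from 14431 to 105746 bp downstream and all of processed transcripts without a coding sequence, were not within 1 kb of it. At Tex10 the starts 3463, 4535 and 14156 bp downstream, and at Las1l those 5904, 8759 and 9507 bp downstream, were unmarked too. At Senp3 an annotated coding start 3397 bp downstream also lay outside H3K4me3, within 1 kb of its edge.

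Within 10 kb of the gene bodies there were 15 H3K4me3 and 4 HA-Tex10 intervals in all. H3K4me3 was present in this window at all 7 genes, compared with 70.7% of all coding genes. HA-Tex10 was present in this wider window at 4 genes, Tex10, Nol9, Pelp1 and Senp3, compared with 16.9% of all coding genes and 23.8% of marked genes. Of these 4 intervals, those at Tex10 and near Senp3 overlapped H3K4me3 over their whole width, and those at Nol9 and Pelp1 did not overlap it. Of all 4238 HA-Tex10 intervals on the assembled chromosomes, 2936 overlapped H3K4me3, so both cases were common. Tex10, Las1l, Nol9, Pelp1 and Mdn1 had 1 H3K4me3 interval each in the window. Wdr18 had 3, one of them over the TSS of the glutamate receptor subunit gene Grin3b, and Senp3 had 7. The 118099 bp of Mdn1 and its flanks held 1 H3K4me3 interval and no HA-Tex10. Of the 2484 coding genes over 100 kb, 18.4% had HA-Tex10 in the body or within 10 kb of it.

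**Figure D5:**
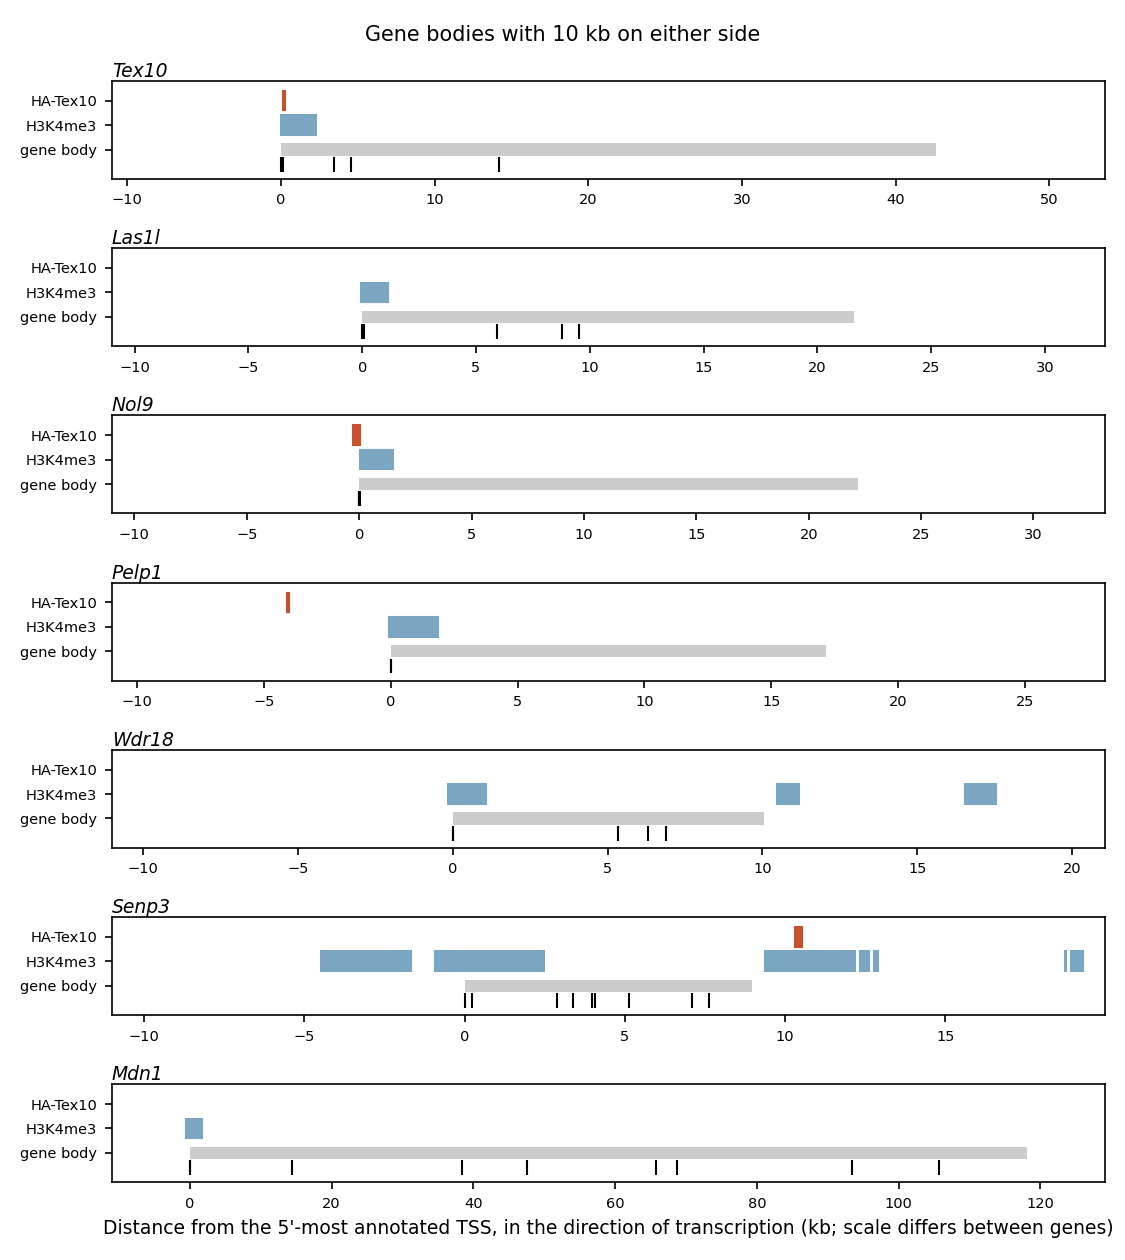
The 7 gene bodies (grey) with 10 kb on either side, in kb from the 5′-most TSS along the direction of transcription, with H3K4me3 (blue), HA-Tex10 (red) and annotated TSS (ticks); the scale differs between genes and intervals have a thin outline so that narrow ones stay visible. H3K4me3 lies at the 5′ end of each gene, and HA-Tex10 at Pelp1 and Senp3 lies outside the gene body.

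The promoters were read for short words of known factors in the RefSeq window of 250 bases before to 50 after the start, on both strands; all 7 genes matched that table, Nol9 and Senp3 with 2 starts each. SP factors are known for the GC box, GGGCGG. Myc and related factors bind the E-box, CACGTG. The word of NFY was read as CCAAT and that of ETS factors as CCGGAAG. The TATA box was read as TATAAA, and the YY1 word was 11 bases long. The words of NRF1, CREB (TGACGTCA) and the octamer (ATGCAAAT) completed the set, in which no word contains another. The GC box was found at all 7 genes (at Senp3 for 1 of its starts), against 35.7% of 32851 RefSeq promoters and 63.9% of the 13410 promoters of marked genes. At Nol9 both of its copies lay inside the HA-Tex10 interval, as shown above. The Tex10 interval, which lies downstream of its start, held none of the 9 words, and neither did the distal Pelp1 interval. The interval near Senp3, at the TSS of Eif4a1, held 2 GC boxes and 1 CCAAT.

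Other words divided the genes. E-boxes were found at Tex10, Pelp1 and Mdn1 (9.81% of marked-gene promoters), ETS words at Tex10 and Las1l (16.5%), CCAAT at Las1l and Senp3 (37.4%; at 4 genes from 500 bases before to 100 after the start) and TATAAA at Tex10 (6.59%), while NRF1, CREB and octamer words were at none. The YY1 word was found at Wdr18 and Pelp1, against 1.36% of marked-gene promoters. It is shown with its flanks for Wdr18 (chr10:79960152-79960178, plus strand) and Pelp1 (chr11:70409997-70410023, minus strand), capitals marking the word.
Wdr18 YY1 word: ggcagagcAAGATGGCGGCgcccatgg
Pelp1 YY1 word: agcctgtgAAGATGGCGGCggccgttc
In both genes the ATG inside the word is the annotated start codon in GENCODE, so the word spans the beginning of the coding sequence. A match is a description of letters and not evidence of binding. The GC content of the 7 genes' promoters was 56 to 68.7%, above the median of 52.7% over RefSeq promoters. From 500 bases before to 100 after the start it was 49 to 61.8% against a median of 51%. Las1l (49%) and Mdn1 (50.7%) lay below that median. Both medians are over all RefSeq promoters, whereas the 7 genes are all marked. A GC median over promoters of marked genes alone was not computed.

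The surrounding pathway was read from 3 lists. Of 38 genes of 60S assembly, all had H3K4me3 and 8 (21.1%) had HA-Tex10 within 1 kb of a TSS. They were Npm1 (nucleophosmin), Nsa2, Nop16, Nop53, Mrto4, Mak16, Mphosph6 and Nip7, the last 3 of them on chromosome 8, where HA-Tex10 was frequent. At each of the 8 the HA-Tex10 interval overlapped H3K4me3, unlike at Nol9. This is the usual placement, since only 6.5% of the 1922 coding genes with both lacked such an overlap. The HA-Tex10 widths at the 8 ran from 87 bp at Mrto4 to 499 bp at Mphosph6. The assembly factors on which Mdn1 acts, Wdr12 and Nle1, were not among the 8, nor were Pes1 and Bop1, the partners of Wdr12.

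In the SUMO pathway 4 of 15 genes (26.7%) had HA-Tex10 within 1 kb of a TSS and all 15 had H3K4me3. Among them were Sae1, a subunit of the activating enzyme, and the proteases Senp1 and Senp5. Senp5, the relative of Senp3 that also works in the nucleolus, had a 394 bp interval containing a TSS, while Senp3 had none. The Sae1 interval was 27 bp wide and lay outside H3K4me3. Among 10 genes for proteins described as partners of Tex10 or of the complex, 3 (30%) had HA-Tex10: Ep300, which encodes p300, and Kmt2a and Wdr5, of the H3K4 methyltransferase complexes. Sox2, Nanog, Pou5f1, Tet1, Zfp148, Chtop and Prmt1 had H3K4me3 without it. These counts stand beside 14.3% of marked genes, and lists of this size chosen with results known allow no statement that any is set apart.

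H3K4me3 at marker genes was compared with the cell type in the labels. It was present within 1 kb of a TSS at 8 of 9 germ cell and pluripotency genes (Prdm1, Prdm14, Tfap2c, Nanos3, Kit, Nanog, Pou5f1 and Sox2, but not Dppa3), and at 0 of 4 blood genes. It was also present at 4 of 4 epiblast, 4 of 4 endoderm and 4 of 4 mesoderm genes, and at 2 of 4 fibroblast and 2 of 4 neuron genes. Over all coding genes the share was 61.6%. The mark alone therefore does not tell these cell types apart, and other cells in the culture were not tested as a part of the results above.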

How the data were processed

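The deposited files give interval starts and ends in bp, in BED format without header, score or strand; there are 2 HA-Tex10 lists and 1 H3K4me3 list. Per the submitters' processing notes, build mm10 and the tools Bowtie2 2.3.4.3, SAMtools 1.9, MACS2 2.1.2 and HOMER were used, with no roles given. The calling threshold, the use of input and the way replicates were combined are not given in the sources used here. On the 21 assembled chromosomes (4238 HA-Tex10 and 29002 H3K4me3 intervals), 0 intervals passed a GRCm38 chromosome end.

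Intervals were joined to GENCODE M21 in Python 3.11.15 (numpy 2.4.6, pandas 2.3.3). An interval was at a TSS if any base lay within 1 kb of the TSS of any transcript, and overlaps needed 1 bp. Interval functions were tested on simulated data. Percentiles count genes or intervals with a smaller value. Promoters are RefSeq windows on GRCm38.p6; repeated sequence was counted as 32-base words found more than once. The genes, lists and words were chosen with earlier results of these data known. Named genes were the 7 genes, list genes with HA-Tex10 at a TSS, genes with a TSS inside a named interval and the 3 genes most like each HA-Tex10 gene. List genes without HA-Tex10, markers and Tnfsf13 were named after their values were seen. The second HA-Tex10 list holds the 2936 intervals of the first overlapping H3K4me3 and served only as an alternative. 1 gene of the SUMO pathway list is counted but not reported here by name. No significance test was run.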

Additional observations from a re-analysis of the deposited data

How the results depend on the processing

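No paired analysis was possible because the 3 deposited lists have no replicate columns, and leaving out a replicate could not be done either. Of 48 values of the main counts under alternatives, 38 stayed within 1.5 times and 10 moved further. The number of the 7 genes with HA-Tex10 at a TSS was 2 with windows of 500 bp or 2.5 kb, coding transcripts only, interval centres or merged neighbours. With interval centres, 6 of the 7 had H3K4me3 (Tex10 was lost). The number with HA-Tex10 rose to 4 within 5 kb, where Pelp1 and Senp3 were added. The shares at 5 kb were 11.2% of all coding genes and 16.9% of those with H3K4me3. Senp3 entered through a retained-intron TSS 7641 bp downstream of its 5′-most TSS, which lay 2656 bp from the interval at Eif4a1. The number fell to 1 with intervals wider than the median of their list (Nol9 alone). With the second list it was also 1 (Tex10 alone, since that list holds only intervals overlapping H3K4me3). Genes of the partner list rose from 3 to 5 within 5 kb and fell to 1 with the wider intervals, which left 5 of the 8 genes of 60S assembly. With no flank around the gene bodies, 2 genes had HA-Tex10 in 2 intervals and there were 7 H3K4me3 intervals, and with 20 kb there were 25. The share of all coding genes with HA-Tex10 at a TSS ranged from 4.81% to 11.2%, and 4 of 36 other background and word values went beyond 1.5 times: that share and the share of marked genes (8.83%) with the wider intervals, the share with no flank around the gene body (9.43%) and the CCAAT count (4). Depth is unknown, so absence of an interval is a limit of detection.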

Other observations

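The coding genes most like Tex10 and Nol9 were sought over the 1922 genes with both kinds of interval, by the distance of the HA-Tex10 centre from the nearest TSS, its width and the width of H3K4me3. For Tex10 they were Ears2, Ubfd1 and Rps3a1. The Tex10 centre lay 53 bp downstream of its nearest TSS, that of a retained-intron transcript, and 169 bp downstream of the 5′-most TSS. Ears2 and Ubfd1 have the same interval widths, of 119 and 2247 bp. Whether these are the same 2 intervals, counted once for each gene, was not tested, so Ears2 and Ubfd1 are not shown to be separate places. Rps3a1, a ribosomal protein gene, had a 120 bp HA-Tex10 interval centred 73.5 bp downstream and H3K4me3 of 2494 bp. Of that HA-Tex10 interval 65 bp lay inside H3K4me3, whereas the interval at Tex10 lay wholly inside. For Nol9 they were Mbd4 and Msh5, genes of DNA repair families, and Wdtc1. Mbd4 had a 323 bp interval centred 122 bp upstream and H3K4me3 of 1510 bp. Its HA-Tex10 interval lay wholly inside H3K4me3, and those of Wdtc1 and Msh5 overlapped it by 296 and 279 bp, unlike at Nol9; overlap was not part of the measure. Likeness here means placement in 2 lists and nothing more.

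Tex10 and Nol9 were also the only 2 of the 7 genes whose H3K4me3 interval began downstream of the 5′-most TSS, by 15 and 47 bp. At the other 5 it reached 58 to 936 bp upstream (Pelp1 58, Las1l 63, Wdr18 157, Mdn1 603 and Senp3 936 bp). This was noticed after the values were seen, so the same was counted over all marked genes. There 30.2% had an H3K4me3 interval beginning downstream, and HA-Tex10 was present at 10.5% of these and at 15.9% of the 9394 whose interval reached or passed the 5′-most TSS. That count set no limit on how far downstream the interval began, so it is not matched to the 15 and 47 bp at Tex10 and Nol9. A split of 2 against 5 genes gives no direction to set beside it.

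H3K4me3 at Senp3 (11.2%), Nol9 (7.33%), Mdn1 (5.78%) and Pelp1 (0.318%) included some 32-base words that occur elsewhere in the reference, while those at Tex10, Las1l and Wdr18 included 0.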
